A study of Homo sapiens with 24 samples.

Results

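Complement, coagulation and fibrinolysis genes were followed through the depletion of PKCδ in 4 non-small cell lung cancer (NSCLC) lines. The 57 genes were taken by name from a written list, chosen with earlier results of these data known. All 57 had a probe set on the array, among 18417 genes tested. They comprise 8 genes that start complement, 6 of the C3 and C5 convertases, 4 of the terminal complex, 7 complement regulators, 4 complement receptors, 3 of the tissue factor pathway, 6 of the contact and intrinsic pathway, 8 of the common pathway and the clot, 6 anticoagulants and 5 of fibrinolysis. All 4 lines carry mutant K-ras, and in the study's terms H2009 and H441 depend on it while A549 and H460 do not. Each line was stably transduced with a pLKO lentivirus for a scrambled shRNA (δscr, labelled Scrambled) or for the PKCδ shRNA δ193 (labelled knock-down), kept in puromycin and grown in RPMI medium with fetal bovine serum. Total RNA of 3 biological replicates of each of these 8 groups was read on Affymetrix human gene arrays, 24 in all. δ193 was the only PKCδ shRNA used here, so what it may do to other transcripts cannot be told apart from the loss of PKCδ, and whether the stable lines were pools or clones is not given in the sources used here.

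Complement is a cascade of plasma proteases and their substrates that starts from C1q, from lectins or by itself, meets at the cleavage of C3, and ends in a pore that C9 closes in the target membrane. Coagulation starts when tissue factor meets factor VII and ends in thrombin and fibrin, which plasmin dissolves, and each cascade is held back by inhibitors on cells and in plasma. The liver makes most of these proteins, but lung epithelial and tumor cells make several of them, among them C3, factor B, the membrane regulators of complement, tissue factor and the plasminogen activators.

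PRKCD, the gene of PKCδ, fell in every line, with no overlap between the groups: the log2 change was -2.40 in H441, -2.25 in H2009, -2.03 in H460 and -1.26 in A549. The H441 δ193 arrays spread widely, at 5.69, 4.68 and 6.00 (SD 0.69, against 0.05 to 0.13 for δ193 in the other lines). With single arrays left out, the PRKCD change in H441 ran from -2.68 to -2.01. Values are log2 RMA values, in which 1 unit is a doubling, and the probes of each gene differ, so a value compares groups for the same gene and not genes with each other. Replicates correlated across genes at 0.9918 or more except in H441 δ193, where the range was 0.9819 to 0.9901. The keratins KRT7, KRT8 and KRT18 had δscr means from 11.07 to 12.48 in every line, as epithelial cells have. The other epithelial markers measured varied by line and were highest in H2009. EPCAM was at 11.20 in H2009, 5.89 in H441, 5.45 in H460 and 4.71 in A549. CDH1 ran from 11.23 in H2009 to 5.60 in H460, and KRT19 from 10.74 in H2009 to 5.24 in A549. The median of all gene means was 5.79. Of 17 leukocyte, endothelial and fibroblast markers measured, 13 had δscr means below that median in every line, among them PTPRC (2.66 to 2.79), CDH5 (3.71 to 3.88) and DCN (2.62 to 2.72). The other 4 were CD68, a lysosomal protein, at 9.27 to 10.44, COL1A1 at 6.03 to 6.49, CD14 at 6.11 in A549 and CLDN5 at 5.87 in H441. The arrays labelled H441 did not show the surfactant and club cell genes for which that line is known: NKX2-1 was at 4.21, SFTPB at 4.01, SFTPC at 5.39 and SCGB1A1 at 4.03, and all 5 lung markers measured lay below 5.79 in the other lines too. H441 below therefore means the arrays so labelled, and the counts and differences among lines that rest on them are also given without them. Since the RNA is of whole cultures, fewer cells of a kind and less RNA per cell cannot be told apart.

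In the δscr cells, the complement genes C1S, C1R, C3, CFD and CFI were highest in H441, the fibrinogen chains and C5 in A549, and the plasminogen activators and tissue factor in H2009. The δscr level differed among the lines for 38 of the 57 genes (66.7%) by limma's F test at an adjusted p under 0.05, where 73.7% of all genes tested did. By pairs of lines, with a log2 difference of at least 0.32 as well, 20 genes differed between H2009 and H441 (49.3% of all genes), 24 between H2009 and A549 (41.4%), 17 between H2009 and H460 (35.5%), 27 between H441 and A549 (48.4%), 23 between H441 and H460 (45.4%) and 23 between A549 and H460 (38.9%). The share of the 57 genes by the F test was near that of all genes. Without the H441 arrays, 33 genes (57.9%) differed among the other lines, where 66.4% of all genes did. The means of 12 genes spanned at least 2 log2 units over the lines, with the highest mean in H441 for 5, in A549 for 4 and in H2009 for 3. The other 19 genes, which did not pass the F test, had means below 5.79 in all 8 groups.

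C3, the protein on which all complement routes meet, read 11.31, 11.06 and 11.01 on the H441 δscr arrays. It read 10.56, 10.56 and 10.59 in H460, 9.81, 9.90 and 9.97 in A549, and 8.84, 8.85 and 8.51 in H2009. The 4 lines did not overlap, and each neighbor in this order differed from the next (H441 over H460 by 0.56, adjusted p = 0.000194; H460 over A549 by 0.68, adjusted p = 2.2e-05; A549 over H2009 by 1.16, adjusted p = 5.75e-09). C1S and C1R, the serine proteases that C1q carries, ran in the same order. The C1S means were 9.64 in H441, 7.60 in H460, 6.49 in A549 and 5.83 in H2009, and the C1R means 7.91, 6.62, 6.06 and 5.62, and every pair of lines differed for each. CFI, the protease that inactivates C3b, had means of 6.93 in H441, 5.28 in H460, 3.88 in H2009 and 3.30 in A549, again with every pair apart. CFD, the protease that cleaves factor B, was at 8.76 in H441, 7.72 in A549, 7.48 in H460 and 6.53 in H2009. Of its pairs, A549 and H460 did not differ past the threshold by limma (0.24, adjusted p = 0.258), and their arrays overlapped.

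A549 stood apart for fibrinogen, the precursor of fibrin. The β chain gene FGB read 8.72, 8.94 and 9.27 on the A549 δscr arrays and 3.65 or less on the 9 δscr arrays of the other lines. The α chain gene FGA read 7.22, 7.36 and 7.36 in A549 and 3.35 or less elsewhere. The γ chain gene FGG read 4.14, 5.59 and 5.78, so that 1 of the 3 A549 arrays was well below the others, against 3.11 or less in the other lines. C5, whose fragment C5b starts the terminal complex, read 5.97, 6.00 and 6.21 in A549 and 3.66 or less elsewhere. H441 minus A549, the difference of the δscr means was -5.52 for FGB, -4.06 for FGA, -2.16 for FGG and -2.68 for C5 (largest adjusted p = 3.62e-08 by limma). FGA, FGG and C5 did not differ between any pair of the other 3 lines. Of 8 hepatic-type markers measured, APOH, which encodes β2-glycoprotein I, was at 5.75 in A549 against 3.17 or less elsewhere and FOXA2 at 7.24 against 5.59 or less, while ALB, the gene of albumin, was at 2.87 in A549 and 2.86 to 3.02 in the other lines.

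**Figure D1:**
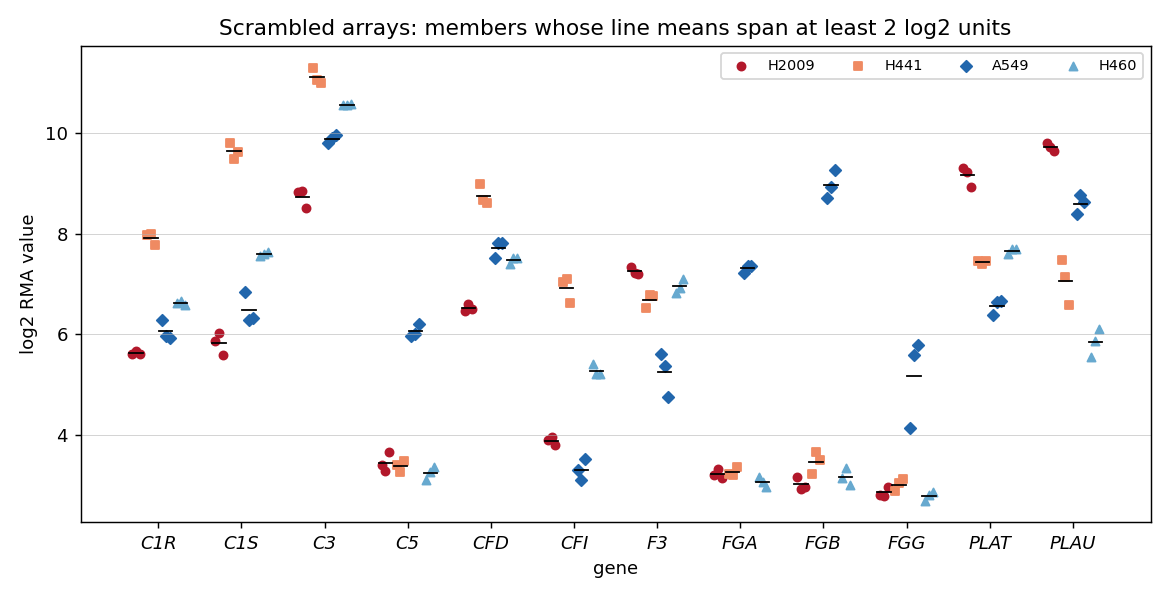
Log2 RMA value (vertical axis) of the 12 genes whose δscr means span at least 2 log2 units (horizontal axis), 1 point for each of the 3 δscr arrays of a line and a bar at the mean. FGA, FGB, FGG and C5 lie high only in A549, with 1 FGG array at 4.14, C1R, C1S, C3, CFD and CFI lie highest in H441, and PLAT and PLAU highest in H2009.

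H2009 had the highest levels of both plasminogen activators. PLAU, urokinase, read 9.81, 9.72 and 9.65 in H2009, and its means were 8.60 in A549, 7.07 in H441 and 5.84 in H460, with every pair of lines apart. PLAT, tissue-type plasminogen activator, read 9.32, 9.23 and 8.94 in H2009, and its means were 7.66 in H460, 7.44 in H441 and 6.56 in A549. Of its neighbors, H460 and H441 did not differ past the threshold by limma (0.22, adjusted p = 0.0995). Their arrays still did not overlap, at 7.60 to 7.70 in H460 and 7.39 to 7.46 in H441. F3, tissue factor, read 7.35, 7.22 and 7.20 in H2009, with means of 6.96 in H460, 6.69 in H441 and 5.24 in A549. By limma H2009 did not differ past the threshold from H460, nor H460 from H441 (adjusted p = 0.161 and 0.175), though the arrays of neither pair overlapped. A549 lay below each.

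With depletion of PKCδ, 22 of the 57 genes (38.6%) were called in at least 1 line, where 22.5% of all genes tested were. Without the H441 arrays, 15 (26.3%) were called in at least 1 of the other 3 lines, where 17.5% of all genes were. The list was chosen with earlier results of these data known, and how far that choice raised the shares was not tested. A call needed an adjusted p under 0.05 by limma, over all genes tested, and a log2 change of at least 0.32 either way, the minimum fold that the study used. The fit takes 1 spread per gene, shared by all 8 groups. A standard error of a change is therefore the same for a gene in every line and does not measure the spread of a single line. In H441, 10 genes were lower and 3 higher, where 7.22% and 7.09% of all genes were. A549 had 4 lower and 3 higher (2.58% and 2.05% of all genes), H460 4 lower and 3 higher (3.44% and 2.01%), and H2009 1 lower and 0 higher (2.25% and 2.66%). The 10 lower in H441 are 17.5% of the 57, and the share of higher genes there, 5.26%, was below the share of all genes. The median change over the 57 genes was -0.10 in H441, where that of all genes was 0.00. In H2009, A549 and H460 it was 0.00, -0.02 and 0.02. C1S and C3 were called in 3 lines, 2 genes in 2 and the other 18 in 1, and none in all 4. Of all 18417 genes tested, 184 were called in 3 lines, 776 in 2, 3139 in 1 and 38 in all 4. None of the 57 was called lower in a line and higher in another.

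**Figure D2:**
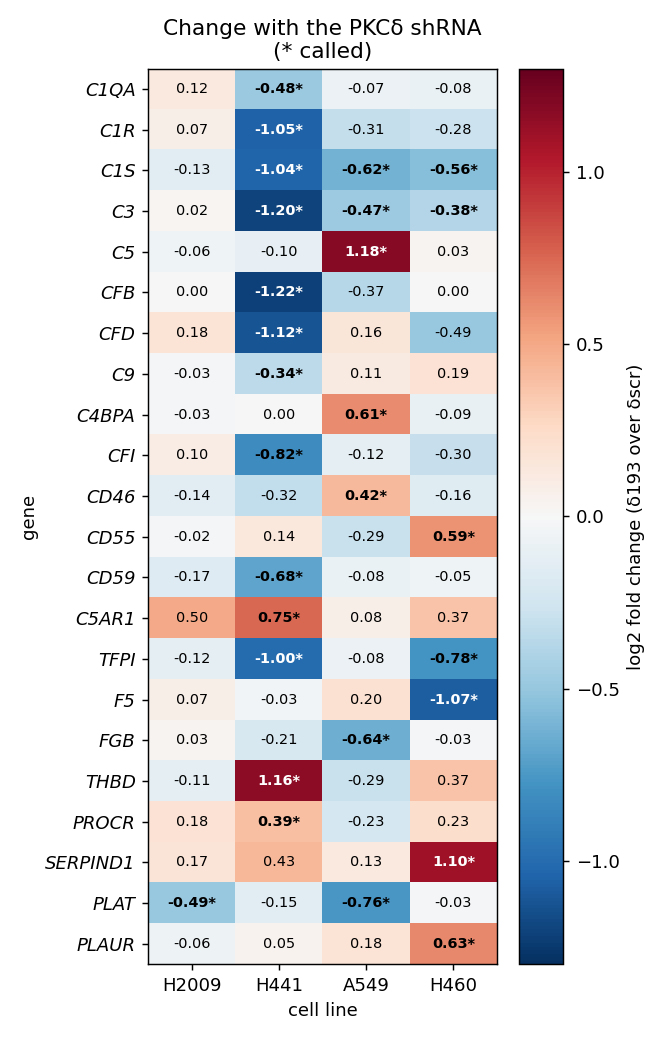
Log2 fold change, δ193 over δscr, of the 22 genes called in at least 1 line (rows) in the 4 lines (columns), blue for lower and red for higher, with an asterisk at each call. The H441 column holds 10 blue calls, from CFB at -1.22 to C9 at -0.34, and the H2009 column holds only PLAT at -0.49.

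In H441, some genes of the classical and alternative routes of complement fell: 3 of 8 genes that start complement and 3 of 6 of the convertases, with 1 of 4 of the terminal complex and 2 of 7 regulators. Of the complement receptors, 1 of 4 rose. On the coagulation side 1 of 3 genes of the tissue factor pathway fell and 2 of 6 anticoagulants rose. Over all genes tested, 7.22% were lower and 7.09% higher in H441. With 1 to 3 calls each, these groups are too small to be compared with those shares. C3 read 11.31, 11.06 and 11.01 with δscr and 10.05, 10.10 and 9.64 with δ193. The groups lay apart, with the third δ193 array lowest, and C3 fell by 1.20 (2.3 fold, standard error 0.11, adjusted p = 8.75e-08). CFB, factor B, which carries the protease of the alternative C3 convertase, read 6.64, 6.12 and 5.62 with δscr and 4.93, 5.45 and 4.34 with δ193. Its replicates spread widely in both groups, which still did not overlap, and it fell by 1.22 (standard error 0.23, adjusted p = 0.000532). CFD read 8.99, 8.67 and 8.62 with δscr and 7.89, 7.95 and 7.06 with δ193. All 3 δ193 arrays lay below the δscr arrays, with the third again lowest, and CFD fell by 1.12 (standard error 0.16, adjusted p = 4.75e-05). C1R, whose δscr arrays read 7.77 to 7.99 and whose δ193 arrays 6.66 to 7.01, fell by 1.05 (adjusted p = 1.3e-07), and C1S, at 9.50 to 9.81 and 8.52 to 8.76, fell by 1.04 (adjusted p = 1.93e-05). C1QA, a chain of C1q, fell by 0.48 (adjusted p = 0.00983) and C9, the pore protein, by 0.34 (adjusted p = 0.00925), both from δscr means under 4 on an array whose median gene mean is 5.79. The other measured genes of these groups were not called: C1QB changed by -0.25 and C1QC by -0.37, MASP1, MASP2, MBL2, C2, CFP, C6, C7 and C8A by -0.20 to 0.21, and C5 by -0.10.

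Inhibitors of complement fell there as well. CFI, which cuts C3b, read 7.05, 7.10 and 6.62 with δscr and 5.98, 6.08 and 6.26 with δ193, and fell by 0.82 (adjusted p = 0.000295). CD59, which keeps C9 out of the membrane of the cell's own surface, read 9.12, 9.04 and 8.82 with δscr and 8.35, 8.43 and 8.16 with δ193, and fell by 0.68 (adjusted p = 1.21e-05). Neither gene's groups overlapped. CD46, a cofactor of factor I on the membrane, changed by -0.32 (adjusted p = 0.0053), under the fold required. CD55, which speeds the decay of the convertases, read 9.67, 9.63 and 9.33 with δscr and 9.79, 10.10 and 9.16 with δ193, a spread on both sides of the control and no call (0.14, adjusted p = 0.596).

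Among coagulation genes of H441, TFPI, the inhibitor of tissue factor with factor VIIa, read 9.70, 9.62 and 9.41 with δscr and 8.73, 9.03 and 7.97 with δ193. The groups lay apart and TFPI fell by 1.0 (standard error 0.17, adjusted p = 0.000221). PROCR, the endothelial protein C receptor, read 8.14, 8.14 and 7.87 with δscr and 8.54, 8.51 and 8.27 with δ193, and rose by 0.39 (standard error 0.12, adjusted p = 0.0315). THBD, thrombomodulin, which turns thrombin to the activation of protein C, read 7.81, 7.73 and 7.53 with δscr and 9.11, 9.66 and 7.78 with δ193. The third δ193 array lay among the controls, and the call (1.16, standard error 0.26, adjusted p = 0.00346) rests on the other 2. That standard error comes from the spread shared by all groups. The SD of THBD in H441 itself was 0.14 with δscr and 0.97 with δ193. THBD changed by 1.70 without δ193 replicate 3 and by 0.75 without δ193 replicate 2. C5AR1, the receptor of the anaphylatoxin C5a, was likewise split, at 4.80, 4.90 and 4.53 with δscr and 6.09, 5.73 and 4.64 with δ193. It was called (0.75, adjusted p = 0.0226) but not without δscr replicate 3, δ193 replicate 1 or δ193 replicate 2, with 0.44 as the lowest change. The means of C5AR1 lay below 5.79, the median of all gene means, in every group.

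**Figure D3:**
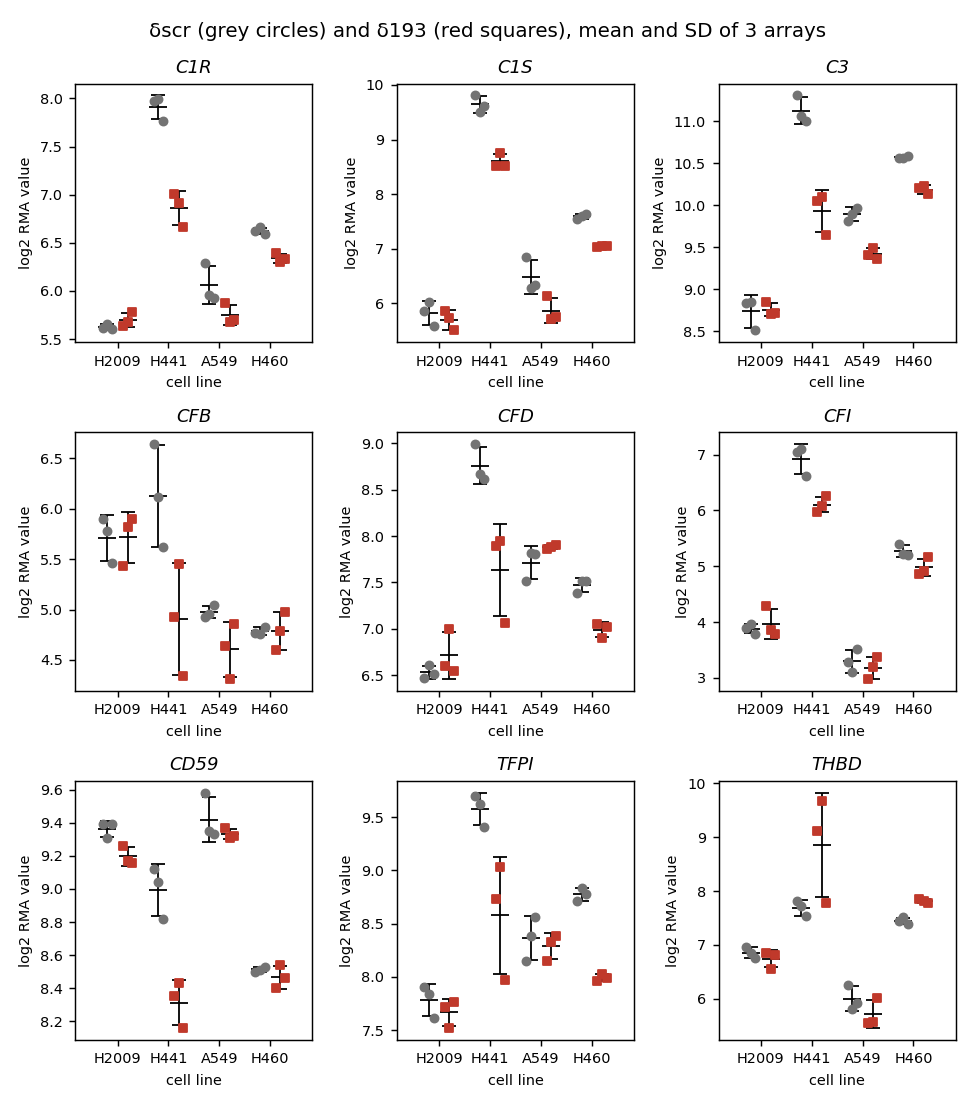
Log2 RMA value (vertical axes, each on its own scale) of 9 genes called in H441, for δscr (grey circles) and δ193 (red squares) arrays of the 4 lines, with the mean and SD of 3 arrays. In H441 the red squares lie below the grey circles for C1R, C1S, C3, CFB, CFD, CFI, CD59 and TFPI, and 1 of the 3 red squares of THBD lies level with the grey circles.

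The calls in H441 differ in how far they depend on the arrays of the other lines. With H441 fitted on its own 6 arrays, 6 of the 13 calls remained, all lower: C3 (adjusted p = 0.00412), C1R and C1S (0.0046 for each), CFI (0.03), CFD (0.0333) and CD59 (0.0372). CFB (0.0641) and TFPI (0.0591) did not pass, nor did C1QA, C9, C5AR1, THBD and PROCR (0.141 to 0.257). C1QA was not called without δscr replicate 1, C9 not without δscr replicate 3 or δ193 replicate 2, and PROCR not without δscr replicate 3, δ193 replicate 1 or δ193 replicate 2. The count of calls in H441 was 14 without δ193 replicate 3 and 15 without δ193 replicate 2. In the same cells the epithelial cadherin CDH1 fell by 1.20 and keratin KRT19 by 0.55, of 6 epithelial markers, and endothelial PECAM1 fell by 0.51, and their part in these changes was not tested.

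Sequence before the start site is shown for CFB and C1R, which fell the most in H441 of the 4 genes that fell there and hold the letters TTCNNNGAA, known as a GAS or STAT element. The windows are the 250 bases before a start site in RefSeq (GRCh38.p14), 5′ to 3′ on the strand of the gene, with the motif in capitals.
CFB, chr6:31945845-31946094, plus strand: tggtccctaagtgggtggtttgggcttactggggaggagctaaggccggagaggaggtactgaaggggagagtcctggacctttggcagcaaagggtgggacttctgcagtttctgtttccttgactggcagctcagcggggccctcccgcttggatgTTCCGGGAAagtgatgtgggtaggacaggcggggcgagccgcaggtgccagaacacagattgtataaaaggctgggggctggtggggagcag
C1R, chr12:7091894-7092143, minus strand: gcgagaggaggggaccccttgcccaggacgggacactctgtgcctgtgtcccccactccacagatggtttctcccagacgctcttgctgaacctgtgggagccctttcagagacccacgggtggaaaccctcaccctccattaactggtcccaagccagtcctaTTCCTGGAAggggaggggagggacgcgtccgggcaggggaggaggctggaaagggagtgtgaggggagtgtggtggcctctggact
Of the 57 genes, 48 were found in the RefSeq table by symbol, among them 8 of the 10 that fell in H441. TTCNNNGAA was in the windows of 4 of the 8 (C1QA, C1R, CFB and CD59), of 13 of the 48, and of 8.09% of the 27305 genes in the table. Both strands were searched, and neither match shown overlapped a match of the other 7 motifs searched. C1R has 2 start sites in the table, of which the window shown is the one with the match.

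In A549, C5 and the regulators C4BPA and CD46 rose, and FGB, PLAT, C1S and C3 fell. C5 read 5.97, 6.00 and 6.21 with δscr and 7.33, 7.25 and 7.14 with δ193. All 3 δ193 arrays lay above the δscr arrays, and C5 rose by 1.18 (2.27 fold, standard error 0.11, adjusted p = 2.52e-07). C4BPA, the α chain of C4b-binding protein, a plasma inhibitor of the classical convertase, read 3.18, 3.03 and 3.42 with δscr and 3.71, 3.64 and 4.12 with δ193. It rose by 0.61 (standard error 0.12, adjusted p = 0.00206) with no overlap, at values low on this array. CD46 read 9.15, 9.36 and 9.40 with δscr and 9.70, 9.73 and 9.75 with δ193, and rose by 0.42 (standard error 0.08, adjusted p = 0.00118), with the groups apart.

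Among genes that fell in A549, PLAT read 6.38, 6.64 and 6.66 with δscr and 5.86, 5.83 and 5.72 with δ193. The groups lay apart and PLAT fell by 0.76 (standard error 0.11, adjusted p = 0.000132). FGB read 8.72, 8.94 and 9.27 with δscr and 8.13, 8.33 and 8.55 with δ193, a spread within each group nearly as wide as the gap between the means. It fell by 0.64 (standard error 0.16, adjusted p = 0.015), and the call was lost without δscr replicate 3, δ193 replicate 1 or δ193 replicate 2. The other fibrinogen chains were not called: FGA read 7.22, 7.36 and 7.36 with δscr and 7.17, 6.81 and 7.23 with δ193, and FGG read 4.14, 5.59 and 5.78 with δscr and 5.86, 5.94 and 5.96 with δ193 (0.75, adjusted p = 0.074). For FGG, 1 δscr array lay well below the other 5. C1S read 6.85, 6.28 and 6.33 with δscr and 6.14, 5.72 and 5.75 with δ193 and fell by 0.62 (standard error 0.14, adjusted p = 0.00993), and C3 fell by 0.47 (adjusted p = 0.0118). In both groups replicate 1 of C1S was the highest, and the call was lost without δscr replicate 1, δ193 replicate 2 or δ193 replicate 3, with changes of -0.75 to -0.44. C3 was lost without δscr replicate 3 or δ193 replicate 3. Of the 8 hepatic-type markers, APOH rose by 1.31 (adjusted p = 2.07e-08) and none of the other 7 was called, FOXA2 (0.03) among them.

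C5, C4BPA and FGA, which had their highest δscr means in A549, have the letters GTTAATNAT of an HNF1 element in their windows. HNF1 factors drive many genes of liver plasma proteins. The windows are again the 250 bases before a RefSeq start site (GRCh38.p14), on the strand of the gene, with the motif on either strand in capitals.
C5, chr9:121050276-121050525, minus strand: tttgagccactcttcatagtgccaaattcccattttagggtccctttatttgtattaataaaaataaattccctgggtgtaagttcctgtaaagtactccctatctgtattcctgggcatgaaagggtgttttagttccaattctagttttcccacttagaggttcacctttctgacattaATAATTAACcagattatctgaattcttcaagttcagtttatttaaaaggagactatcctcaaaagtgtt
C4BPA, chr1:207103983-207104232, plus strand: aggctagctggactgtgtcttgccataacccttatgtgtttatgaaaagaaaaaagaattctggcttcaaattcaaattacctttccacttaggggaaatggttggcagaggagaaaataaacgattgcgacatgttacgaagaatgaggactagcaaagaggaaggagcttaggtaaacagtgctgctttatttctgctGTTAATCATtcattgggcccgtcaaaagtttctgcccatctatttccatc
FGA, chr4:154590743-154590992, minus strand: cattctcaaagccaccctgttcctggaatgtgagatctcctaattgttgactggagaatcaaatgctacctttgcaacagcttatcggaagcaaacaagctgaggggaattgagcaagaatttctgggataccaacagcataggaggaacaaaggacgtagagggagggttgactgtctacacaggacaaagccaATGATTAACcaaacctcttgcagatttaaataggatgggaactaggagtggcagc
The motif was in the windows of 5 of the 48 genes (C5, C4BPA, FGA, F13B and PLG) and of 0.879% of all genes in the table. It overlapped no other motif searched in the windows shown or in PLG, and 1 in F13B. F13B, the B chain of factor XIII, and PLG, plasminogen, were not called in any line and had δscr means of 2.59 to 2.67 and 3.30 to 3.66. C5 has 2 start sites in the table, and the match lies before the downstream of the 2. The other motifs searched were found in 4 of the 48 genes for AP-1 (TGANTCA, 8.06% of all genes), 5 for ISRE (GAAANNGAA, 8.41%), 1 for NF-kappaB (GGGANTTTC, 1.37%), 12 for C/EBP (TTGCNNAA, 11%), 6 for the box TATAAA of core promoters (13%) and 12 for SP1 (GGGCGG, 46.2%). A match describes letters and is not a binding site, and no binding was measured in these cells.

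In H460, coagulation genes led the changes. F5 and SERPIND1, which changed the most, had means below 5.79, the median of all gene means, in every group. F5, factor V, the cofactor with which factor Xa makes thrombin, read 5.16, 5.34 and 5.03 with δscr and 3.92, 4.13 and 4.26 with δ193. The groups lay apart, and F5 fell by 1.07 (standard error 0.11, adjusted p = 5.47e-07), to a mean of 4.10, where the other lines had means of 3.81 to 4.07. SERPIND1, heparin cofactor II, an inhibitor of thrombin, read 4.22, 4.30 and 4.16 with δscr and 5.21, 5.75 and 5.03 with δ193, and rose by 1.10 (standard error 0.17, adjusted p = 0.000192) with no overlap. TFPI read 8.71, 8.83 and 8.78 with δscr and 7.96, 8.03 and 7.99 with δ193, in narrow groups that lay apart, and fell by 0.78 (standard error 0.17, adjusted p = 0.00571). PLAUR, the urokinase receptor, read 8.28, 8.15 and 8.20 with δscr and 8.77, 8.82 and 8.91 with δ193, and rose by 0.63 (standard error 0.11, adjusted p = 0.000957), again with no overlap.

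Complement genes of H460 changed by less. CD55 read 10.02, 10.08 and 9.99 with δscr and 10.61, 10.62 and 10.62 with δ193, and rose by 0.59 (standard error 0.15, adjusted p = 0.0155). C1S read 7.55, 7.60 and 7.64 with δscr and 7.03, 7.05 and 7.05 with δ193, and fell by 0.56 (standard error 0.14, adjusted p = 0.0191). C3 read 10.56, 10.56 and 10.59 with δscr and 10.20, 10.23 and 10.13 with δ193, and fell by 0.38 (standard error 0.11, adjusted p = 0.0409). These 3 genes had tight groups that lay apart, but their calls were each lost with single arrays left out: C3 with any H460 array or H2009 δ193 replicate 3 left out, CD55 with any H460 array but δscr replicate 2, and C1S with any H460 array but δscr replicate 1. The count in H460 was 4 without δscr replicate 3, δ193 replicate 1 or δ193 replicate 3, and 12 with H460 fitted on its own 6 arrays. The shares of all genes called in those fits were not computed. CFD (-0.49, adjusted p = 0.0924) and PLAU (0.60, adjusted p = 0.0778) were not called. The groups of each lay apart, as did those of 6297 of the 18417 genes tested in H460. Both were called once the H441 arrays were left out of the fit.

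**Figure D4:**
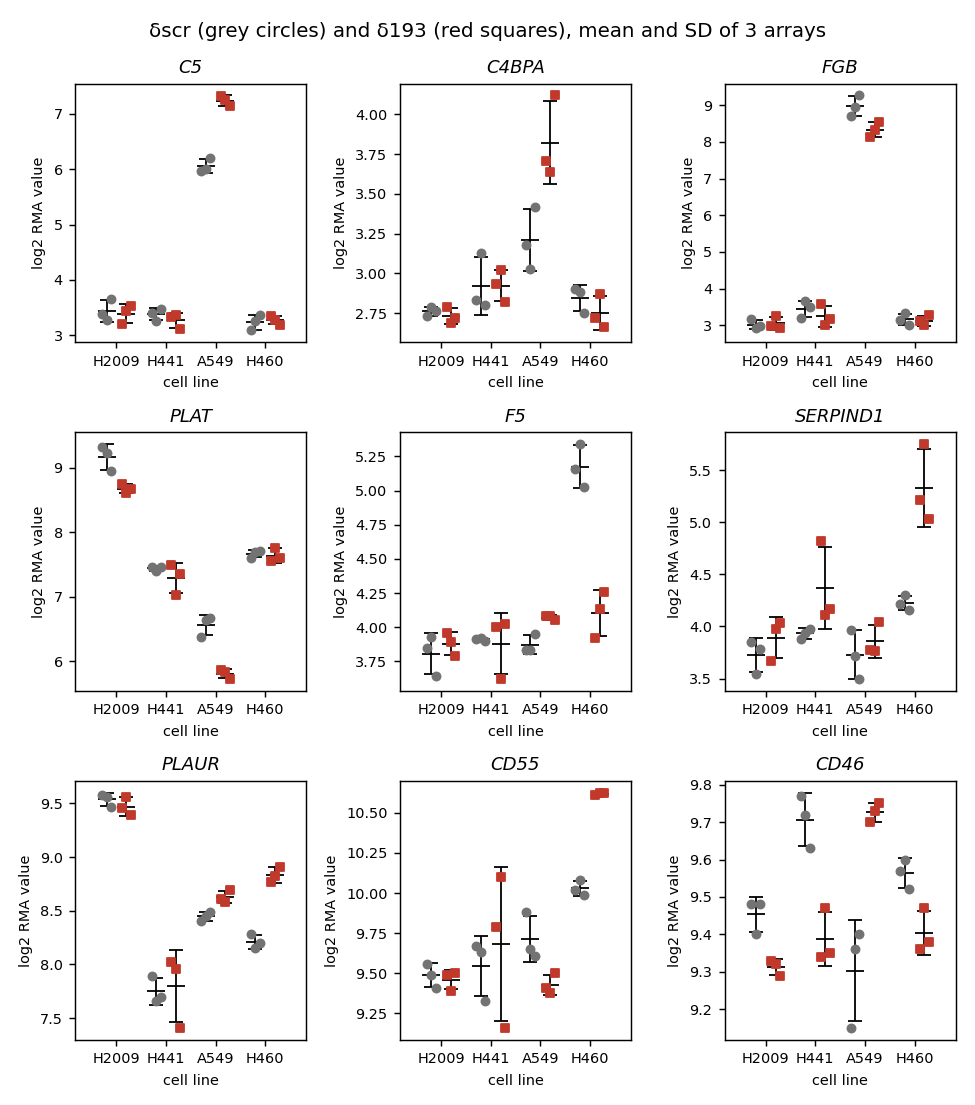
Log2 RMA value (vertical axes, each on its own scale) of 9 genes called in H2009, A549 or H460, for δscr (grey circles) and δ193 (red squares) arrays of the 4 lines, with the mean and SD of 3 arrays. C5, C4BPA and CD46 rise and FGB and PLAT fall in A549, F5 falls and SERPIND1, PLAUR and CD55 rise in H460, and PLAT falls in H2009.

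In H2009 the call was PLAT, which read 9.32, 9.23 and 8.94 with δscr and 8.75, 8.61 and 8.66 with δ193. The groups lay apart, and PLAT fell by 0.49 (standard error 0.11, adjusted p = 0.00867), but not past the threshold without δscr replicate 1. The largest change among the other 56 genes in H2009 was that of C5AR1, at 3.66, 4.20 and 4.13 with δscr and 4.46, 4.59 and 4.44 with δ193 (0.50, adjusted p = 0.258). All 3 δ193 arrays lay above the δscr arrays, and C5AR1 was called once the H441 arrays were left out. Of the 9 complement genes that fell in H441, none was called in H2009: CFD changed by 0.18, C1QA by 0.12, CFI by 0.10, C1R by 0.07, C3 by 0.02, CFB by 0.00, C9 by -0.03, C1S by -0.13 and CD59 by -0.17, and only the groups of CD59 lay apart.

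A test of the change itself among the lines was passed by 18 of the 57 genes (31.6%), where 14.1% of all genes passed. Those with the smallest adjusted p by limma's F test were C5 (6.72e-06), F5 (1.01e-05), C1R (5.56e-05), C3 (8.12e-05), CD46 (0.000221) and CFD (0.000774). The C3 change in H2009 lay 1.22 above that in H441 (95% confidence interval 0.89 to 1.55, adjusted p = 2.98e-05), and the change in H441 lay below those in A549 (-0.73, -1.05 to -0.40, adjusted p = 0.0041) and H460 (-0.81, -1.14 to -0.49, adjusted p = 0.00377). C1R gave the same order, with differences of -0.74 from A549 and -0.77 from H460 (adjusted p = 0.00153 and 0.00268). For C1S, H441 differed from H2009 (adjusted p = 0.00676), but not past the threshold from A549 (-0.42, -0.84 to -0.01, adjusted p = 0.216) or H460 (-0.49, -0.90 to -0.07, adjusted p = 0.178). TFPI, called in H441 and H460, differed between them by -0.22 (-0.72 to 0.27, adjusted p = 0.671), so a difference of either sign is within the error. PLAT, called in H2009 and A549, did not differ between them past the threshold (0.26, -0.07 to 0.59, adjusted p = 0.508). Without the H441 arrays, 15 of the 57 genes (26.3%) differed in their change among the other 3 lines, where 15.2% of all genes did, C3, C5, CFD, CD46, F5 and PLAT among them but not C1R, C1S, CFB, CFI or CD59.

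The change differed between the K-ras classes, as the mean change of H2009 and H441 minus that of A549 and H460, for 6 of the 57 genes (10.5%), where 4.65% of all genes passed. They were C5 (-0.69), PLAUR (-0.41), CD46 (-0.36), CD59 (-0.36), C9 (-0.34) and F5 (0.46). In none of the 6 did both lines of a class pass on their own in the same direction: C5 and CD46 rose in A549, F5 fell and PLAUR rose in H460, and CD59 and C9 fell in H441. With H2009 as the only dependent line, C5 (-0.67), F5 (0.51) and PLAUR (-0.47) passed again, C1R, C3 and PLAU passed as well (6 genes, 10.5%, where 7.41% of all genes did), while CD46 (-0.27, adjusted p = 0.0482) was just under the required fold and CD59 (-0.10) and C9 (-0.18) did not pass.

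The other 35 genes were called in no line. Among them were PROS1, protein S, a cofactor of protein C, with δscr means of 6.67 to 7.94 and changes of -0.35 to 0.13, and F3, whose H460 arrays read 6.83, 6.93 and 7.11 with δscr and 6.55, 6.60 and 6.67 with δ193 without a call. PLAU and F12, factor XII, were also among them, with changes of F12 of 0.09 to 0.28. Of these 35, 30 lay below the median of the gene means in all 8 groups, among them C6, C7 and C8A of the terminal complex, the receptors CR1, CR2 and C3AR1, prothrombin (F2), factors VII, VIII, IX, X and XI, VWF, antithrombin (SERPINC1) and plasminogen. Of the 21 genes above it in at least 1 group, of δscr or δ193 arrays, 16 were called in at least 1 line. The share called among all genes above it was not computed, so this count has no background to be set against.

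Of 51 further genes of these pathways that were listed, 41 were measured, and each line had calls among them. VTN, vitronectin, which binds the terminal complex, fell by 2.09 in H441 (8.72 to 6.63, adjusted p = 1.87e-10), more than any of the 57 genes. SERPINA1, α1-antitrypsin, fell by 0.62 in H441, where its groups overlapped, and rose by 0.82 in A549. THBS1 rose by 0.62 in H441 and F2R by 0.55 in H2009. HABP2 and SERPINE2 rose by 0.48 and 0.41 in A549. CLU, clusterin, an inhibitor of the terminal complex, rose by 1.17 in H2009, 0.45 in H441 and 0.51 in H460, and GGCX, the carboxylase that vitamin K serves, fell by 0.42, 0.58 and 0.39 in the same lines. BDKRB1, the bradykinin B1 receptor, rose by 0.65 in A549 and 1.38 in H460, and TFPI2 rose by 0.86 in H441, where TFPI fell. In H441, 5 of the 41 (12.2%, against 7.22% of all genes) were lower and 3 (7.32%, against 7.09%) higher, with a median change of -0.07. A549 had 0 lower (2.58% of all genes) and 4 higher (9.76%, against 2.05%), with a median of 0.02. H460 had 1 lower (2.44%, against 3.44%) and 2 higher (4.88%, against 2.01%), and H2009 had 1 lower (2.44%, against 2.25%) and 2 higher (4.88%, against 2.66%), each with a median of 0.09. Several of these shares lie near that of all genes.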

How the data were processed

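The authors hybridized RNA of 24 cultures to Affymetrix human gene arrays and deposited log2 values made by RMA in Affymetrix Power Tools. RMA subtracts background, gives all arrays the same distribution and combines the probes of a transcript cluster, so a change common to most genes would be removed. Software versions and the genome build were not given in the sources used here. Array medians were 4.78 to 4.91, and no background level was measured. Of 33252 clusters, 19460 carry 1 gene symbol, updated through Entrez IDs, and for 769 genes with several clusters the highest mean over all arrays was used, leaving 18417 genes. All arrays were fitted in limma 3.58.1 (R 4.3.3) with 1 coefficient per group and Benjamini-Hochberg adjustment over all genes. Groups came from the labels. With 3 arrays per group, their number limits the precision. The study's own test was Student's, unadjusted, with the same minimum fold (0.32 on the log2 scale).

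The members, the other lists and the rule for named genes were chosen with earlier results of these data known. The rule was PRKCD, members called in any line or spanning at least 2 log2 units over δscr means, array values for up to 3 largest changes each way per line with groups apart, and up to 4 called pathway genes per line. Further array values, the motifs and the windows were picked after values were seen. The alternatives were the methods' t-test with and without adjustment, other folds, 1 fit per line, eBayes with trend and robust, equal array medians, a repeated quantile normalization, genes above the median mean, the mean over clusters, a replicate block and each array left out. Array weights and the fit that leaves out H441 were added after values were seen. The scripts were tested on simulated data.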

Additional observations from a re-analysis of the deposited data

Results flagged for a closer look

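The change with depletion of PKCδ differed among the 4 lines, by limma's F test adjusted over all genes, for 18 of the 57 genes. For complement the adjusted p was 6.72e-06 for C5, 5.56e-05 for C1R, 8.12e-05 for C3, 0.000221 for CD46, 0.000774 for CFD, 0.00302 for CD59, 0.0128 for C4BPA, 0.0151 for CFI, 0.0185 for C9, 0.0204 for C1S, 0.0244 for CFB and 0.0275 for CD55. For coagulation and fibrinolysis it was 1.01e-05 for F5, 0.00798 for PLAT, 0.0145 for TFPI, 0.0166 for PLAUR, 0.0203 for SERPIND1 and 0.0319 for THBD. The same test was passed by 14.1% of all genes.

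Between the K-ras classes the change differed by -0.69 for C5, -0.34 for C9, -0.36 for CD46, -0.36 for CD59, 0.46 for F5 and -0.41 for PLAUR on the log2 scale, dependent minus independent lines. Each of these 6 differences holds a single line that was called, and C9, CD46 and CD59 did not pass with H441 left out. C9 did not pass with any of 9 single arrays left out, PLAUR with any of 13, and CD59 without H441 δ193 replicate 3.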

How the results depend on the processing

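No followed value changed sign under any alternative run. Of 32 single changes followed (28 calls and PRKCD in 4 lines), 21 passed with each array left out in turn and 6 in every other alternative. By the methods' t-test, H460 had 12 calls unadjusted and 8 after Benjamini-Hochberg, A549 had 6 and 0, H441 had 10 and 0, and H2009 had 2 and 0, where limma called 7, 7, 13 and 1. A fold of 1.5 left 0 in H2009 and 1 between K-ras classes. With each line fitted alone the counts were 6 in H441 and 12 in H460, and array weights, chosen after seeing the data, gave 13 in H460. When genes below the median mean were dropped, 4 were called in A549 and 15 differed in δscr level, since fewer members were tested. Without the H441 arrays, also chosen after seeing the data, 2 were called in H2009. The cause of the other shifts was not tested. Shares of all genes called in each line were not computed under any alternative, single arrays left out and the replicate block included. The counts per line in this section therefore have no background to be set against.

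With single arrays left out, calls numbered 4 to 9 in H460, 5 to 8 in A549, 11 to 15 in H441 and 0 to 2 in H2009 (0 without its δscr replicate 1, 2 without H441 δ193 replicate 3). Changes differed among lines for 16 to 19 members, δscr levels for 33 to 39 and changes between classes for 4 to 7.

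The labels give every group replicates 1 to 3. Deviations of arrays with the same number correlated at -0.085 to 0.284 across genes, highest in H2009 (0.095 to 0.284). Of 12 δ193 arrays, 5 correlated best with their own number. With so few arrays this check cannot exclude a pairing, so the fit was also run with a replicate block. With the replicate block the members called were 14 in H441, 9 in H460, 7 in A549 and 1 in H2009, and 18 differed in change among lines and 7 between classes. The δscr level in that fit is the one fitted for replicate 1 of each line, and 30 members differed in it. That count is therefore not comparable with the 38 that differed in the mean of the δscr arrays.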
